A study of Mus musculus with 9 samples.

Results

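The genes described here are 10 members of the MHC class I presentation pathway, chosen by name from 21769 genes in the files. They are B2m, H2-K1, H2-D1, Tap1, Tap2, Tapbp, Psmb8, Psmb9, Psmb10 and Nlrc5, and each was found in the files under its own symbol. They were measured by sequencing polyadenylated RNA of whole mouse retina in 9 libraries, each from 2 retinae, with 3 libraries in each of 3 groups. The rd10 group, whose retinae the labels call degenerated, was taken at postnatal day 61. Mice of the rd10 strain have a mutated Pde6b gene, which encodes a subunit of the rod phosphodiesterase, and lose their rods in the weeks after birth. The wild type group was taken at day 48, and the group of GFP-expressing mice (green fluorescent protein) was taken to be the line written as Gg13, at day 42. The labels call the retinae of both latter groups normal. Age coincided with group in every comparison, so the 2 cannot be told apart. The promoter driving GFP, the sex of the mice, and the genetic background with its H2 haplotype are not given in the sources used here.

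MHC class I molecules carry short peptides from inside a cell to its surface, where CD8 T cells and natural killer cells read them. Proteasomes cut proteins into peptides, and the immunoproteasome subunits Psmb8, Psmb9 and Psmb10 replace the catalytic subunits Psmb5, Psmb6 and Psmb7 in many cells exposed to interferon. The transporter of Tap1 and Tap2 moves peptides into the endoplasmic reticulum, Tapbp (tapasin) holds the empty class I molecule at the transporter, and the heavy chains H2-K1 and H2-D1 are displayed together with the light chain B2m. Nlrc5 encodes the transactivator of class I genes, which acts at their promoters through a complex with RFX, NF-Y and CREB/ATF proteins. Normal retinal neurons are known for low class I levels, and microglia, glia and vessels for higher ones.

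The retina could be recognised in all groups, and rod transcripts were much lower in rd10, at a median log2 change of -7.24 against wild type. Library totals ran from 9597635 to 12149448 counts. All 8 rod markers fell in rd10 against wild type, 9 of 10 Müller glia markers rose, and 13 of 20 markers of microglia and macrophages rose. Of all genes tested, 14.5% rose and 13.9% fell in this comparison. Fewer cells of a type and less RNA per cell cannot be told apart in such samples. Lens transcripts summed to over 100 CPM (counts scaled to a library total of 1000000) in 4 libraries, namely wild type 2, wild type 3, rd10 2 and GFP 1. Wild type 3 and GFP 2 lay apart from the other normal libraries on the second principal component, at -28.6 and -54.5 against 8.44 to 37.8. Of all values from 1 to 10 in the files, 59.3% were even, with 4419 values of 2 and 2003 values of 1. Low counts may therefore not be counts of independent reads.

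The promoters of class I genes are known for a shared layout, in which a kappa B site and an interferon response element lie upstream of a module bound by RFX, CREB/ATF and NF-Y. RefSeq promoter windows on GRCm38.p6 were matched for 8 of the 10 genes. Each window is the 250 bases before the annotated start. The 4 windows that follow are shown because they belong to the light chain, both heavy chains and the transporter subunit that faces Psmb9. They run 5′ to 3′ on the gene's strand, at chr2:122147437-122147686 (plus strand) for B2m, chr17:34000348-34000597 (minus) for H2-K1, chr17:35262844-35263093 (plus) for H2-D1 and chr17:34187306-34187555 (plus) for Tap1. Capitals mark matches, on either strand, to the motifs named in the next paragraph.
B2m: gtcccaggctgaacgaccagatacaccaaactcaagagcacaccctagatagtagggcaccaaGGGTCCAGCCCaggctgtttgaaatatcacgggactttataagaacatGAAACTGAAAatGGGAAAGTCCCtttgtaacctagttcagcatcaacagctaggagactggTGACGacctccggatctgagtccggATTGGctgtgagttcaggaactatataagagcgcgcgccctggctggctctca
H2-K1: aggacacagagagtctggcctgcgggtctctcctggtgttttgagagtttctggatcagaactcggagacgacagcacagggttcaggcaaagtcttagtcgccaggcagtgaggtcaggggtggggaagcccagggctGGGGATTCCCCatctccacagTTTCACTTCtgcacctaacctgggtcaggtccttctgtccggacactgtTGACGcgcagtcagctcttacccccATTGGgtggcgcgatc
H2-D1: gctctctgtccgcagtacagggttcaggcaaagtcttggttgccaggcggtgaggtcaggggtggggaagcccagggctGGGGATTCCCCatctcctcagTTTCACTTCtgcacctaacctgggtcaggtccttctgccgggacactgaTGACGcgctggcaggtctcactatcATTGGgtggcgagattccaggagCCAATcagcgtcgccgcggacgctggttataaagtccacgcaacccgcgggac
Tap1: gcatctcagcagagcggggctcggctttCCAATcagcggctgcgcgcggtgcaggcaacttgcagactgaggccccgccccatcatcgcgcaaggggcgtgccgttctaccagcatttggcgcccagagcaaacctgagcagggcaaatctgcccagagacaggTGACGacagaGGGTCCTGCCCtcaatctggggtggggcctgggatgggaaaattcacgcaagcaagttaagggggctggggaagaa

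The motifs searched on both strands were a long interferon core (GAAA, 2 bases of any kind, GAAA) and a short one (GAANNGAAA) for interferon response elements, a kappa B core (GGG, 5 bases of any kind, CCC), TGACG for the core of cyclic AMP response elements and CCAAT for the NF-Y box. Of 32536 distinct RefSeq windows of this length, 2.98% held the long interferon core, 6.35% held GAANNGAAA, 12.3% held the kappa B core, 17.9% held TGACG and 33.8% held CCAAT. The kappa B core, TGACG and CCAAT stood together, in any order and at any spacing, in 0.925% of windows. B2m, H2-K1, H2-D1, Tap1 and Psmb9 each held all of them. In the B2m window the long interferon core began at -139, counted from the gene start, and kappa B matches at -187 and -127. The Tap1 window had the reverse of the known order, with CCAAT at -222, TGACG at -86 and the kappa B match at -76. The H2-K1 and H2-D1 windows shared a run of 47 identical bases, shown next because it joins the kappa B match of both heavy chains and starts at -141 in H2-K1 and -201 in H2-D1: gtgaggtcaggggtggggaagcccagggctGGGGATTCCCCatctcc. Its capitals mark GGGGATTCCCC, a case of the kappa B core that was found in 10 windows in all (0.0307%). These letters were taken from the H2-K1 window, and the 10 include the windows of H2-K1 and H2-D1, so the share is a description only. GAANNGAAA lay close after the kappa B match, at -90 in H2-K1 and -150 in H2-D1. The Tap1 and Psmb9 windows are the same DNA over 225 bases, read on opposite strands, so their matches are shared. The window of Tapbp held CCAAT alone, and those of Psmb8 and Psmb10 held none of the motifs. These are matches of letters, and no factor's binding was measured.

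Of the 10 genes, 5 rose in rd10 retina against wild type and none fell (edgeR quasi-likelihood test, adjusted p under 0.05), where 14.5% of the 14300 genes tested rose. B2m rose 3.14-fold, Tap1 2.43-fold, H2-K1 2.04-fold and Tap2 1.97-fold, and Nlrc5, at low counts, 4.35-fold. H2-D1, Tapbp, Psmb8, Psmb9 and Psmb10 did not pass. The median log2 change of the 10 was 1.00, and that of all genes tested was -0.03. Against GFP retina 6 rose and none fell, where 15.2% of genes rose, and the median was 1.45 beside -0.02 for all genes. H2-D1 was the sixth. The 2 comparisons share the rd10 libraries. Every rd10 library lay above every wild type library for 6 of the 10 genes, where 26.1% of all genes did so, and above every GFP library for 8 genes, where 25.1% did. All 10 passed the filter on low counts, but Nlrc5 reached its cutoff of 0.921 CPM in 3 rd10 libraries, 1 wild type and 0 GFP libraries, so its place among the tested genes rested on the group where it was high.

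**Figure D1:**
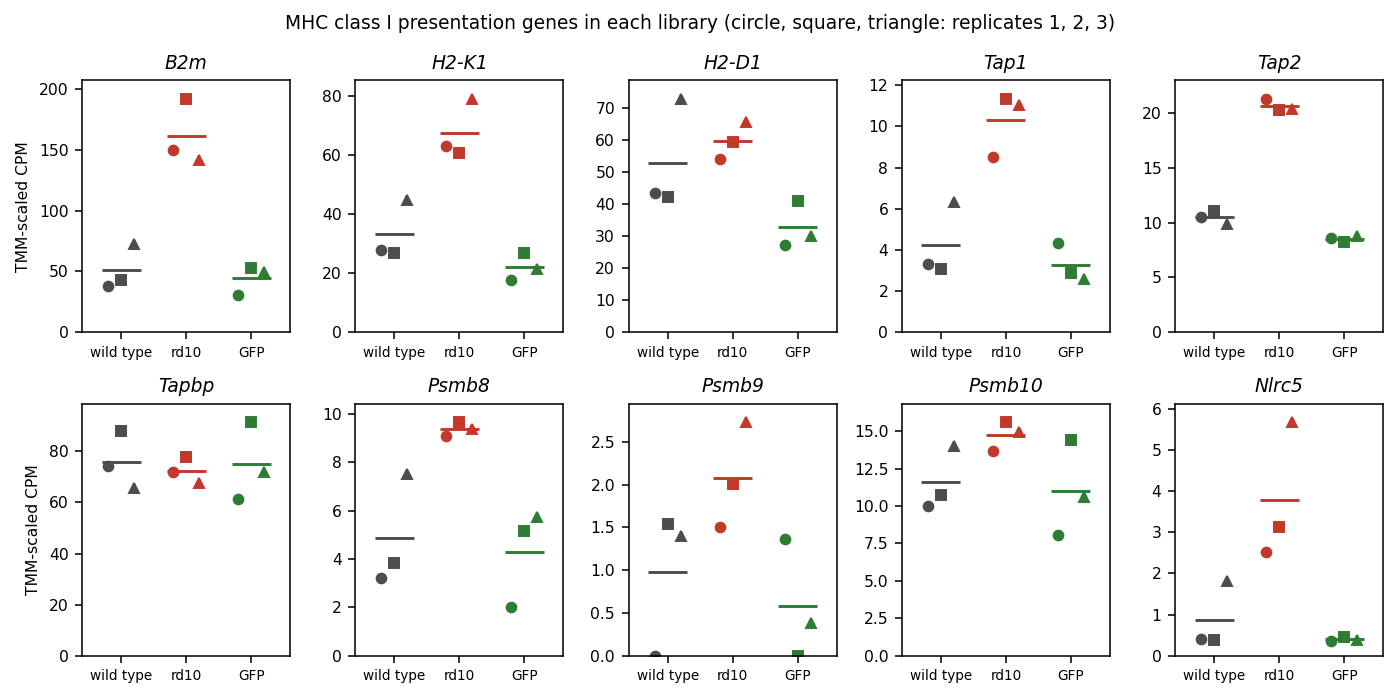
Level of each of the 10 genes in each library, in CPM after TMM scaling on an axis from 0, with the 3 replicates of a group as points and their mean as a line. B2m lies at 141.2 to 191.7 in rd10 and at 30.5 to 72.4 in the 6 normal libraries, while the groups overlap for Tapbp.

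Among the display genes, the light chain B2m (mm9 chr2:121973423-121978818, plus strand) had the smallest adjusted p of the 10 genes against wild type. Its level was 38.05, 43.3 and 72.4 CPM in wild type, 150.0, 191.7 and 141.2 CPM in rd10, and 30.5, 52.8 and 49.3 CPM in GFP. The lowest rd10 library lay well above the highest normal one, which was wild type 3. The log2 change was 1.65 ± 0.28 (SE, n = 3 per group) against wild type, with an edgeR adjusted p of 0.00185, and 1.87 ± 0.28 against GFP, with an edgeR adjusted p of 8.92e-04. B2m kept its call under each of the 20 alternative analyses in both comparisons. Its gene overlaps Patl2 on the other strand, which had 2 counts over all 9 libraries.

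H2-K1 (chr17:34132957-34137278, minus strand) encodes a classical heavy chain that presents peptide. Its level was 28.0, 26.6 and 44.8 CPM in wild type, 63.1, 60.7 and 79.0 CPM in rd10, and 17.6, 26.8 and 21.3 CPM in GFP. No rd10 library overlapped a normal one. The log2 change was 1.03 ± 0.24 (SE, n = 3 per group; edgeR adjusted p = 0.00992) against wild type and 1.63 ± 0.24 (edgeR adjusted p = 8.92e-04) against GFP. H2-D1 (chr17:35400039-35404442, plus strand), the other classical heavy chain of this set, had 43.4, 42.3 and 72.9 CPM in wild type, 54.2, 59.3 and 65.6 CPM in rd10, and 27.4, 40.9 and 30.1 CPM in GFP. All rd10 libraries exceeded wild type 1 and 2 but none reached wild type 3, and all GFP libraries lay below all the others. Against wild type the log2 change of H2-D1 was 0.18 ± 0.23 (SE, n = 3 per group; edgeR adjusted p = 0.597), and against GFP it was 0.87 ± 0.24 (edgeR adjusted p = 0.0197). The call against GFP ended without rd10 3 (adjusted p = 0.0643) and without GFP 3 (adjusted p = 0.0645).

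The heavy chain genes are uncertain in a way the other 8 are much less, since class I heavy chains are near copies of each other. Of the 50-base windows of the longest H2-K1 transcript in GENCODE M21, 8.79% also occurred in transcripts of other genes, and for H2-D1 it was 14.3%. For Tapbp it was 2.00%, for Tap1 0.861% and for Tap2 0.737%, and the other 5 had none. How reads with several matches were counted is not given in the sources used here. A read from another H2 allele may be lost or assigned to another gene.

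The balance of light to heavy chain within a library needs no scaling between libraries. B2m counts stood at 53.4%, 62.8% and 61.5% of the summed H2-K1 and H2-D1 counts in wild type, at 127.8%, 159.7% and 97.7% in rd10, and at 67.8%, 78.0% and 95.7% in GFP. The rd10 ratios lay above all others, although rd10 3 and GFP 3 were close, and the GFP ratios lay above those of wild type. The mean log2 ratio was higher by 1.09 in rd10 than in wild type and by 0.66 than in GFP, and that of GFP was higher by 0.43 than that of wild type. Each of these differences had a two-sided exact permutation p of 0.1, the smallest that 3 against 3 can give, and an adjusted p of 0.133 over the 12 tests of ratios. Under this test no ratio could pass 0.05.

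The transporter genes Tap1 and Tap2 both rose. Tap2 (chr17:34341424-34353266, plus strand) varied least among replicates, with 10.5, 11.1 and 9.92 CPM in wild type, 21.3, 20.4 and 20.4 CPM in rd10, and 8.61, 8.25 and 8.77 CPM in GFP. The rd10 libraries stood far from both normal groups, and all GFP libraries lay below all wild type libraries. The log2 change of Tap2 was 0.98 ± 0.17 (SE, n = 3 per group; edgeR adjusted p = 0.00244) against wild type and 1.28 ± 0.17 (edgeR adjusted p = 4.97e-04) against GFP.

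Tap1 (chr17:34324501-34334170, plus strand) starts 225 bases from Psmb9 and points away from it. It had 3.33, 3.08 and 6.31 CPM in wild type, 8.53, 11.3 and 11.1 CPM in rd10, and 4.35, 2.86 and 2.57 CPM in GFP. Wild type 3 was the highest of the normal libraries and still lay below rd10 1. The log2 change was 1.28 ± 0.34 (SE, n = 3 per group; edgeR adjusted p = 0.0181) against wild type and 1.65 ± 0.35 (edgeR adjusted p = 0.00593) against GFP. The call against wild type ended when wild type 1, wild type 2, rd10 2 or rd10 3 was left out, with adjusted p of 0.0564, 0.0650, 0.0583 and 0.0581, while that against GFP held under the 20 alternatives.

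Tapbp (chr17:34056423-34066235, plus strand), which bridges the transporter and the empty class I molecule, did not differ detectably between groups. It had 74.3, 87.9 and 65.8 CPM in wild type, 72.0, 77.9 and 67.6 CPM in rd10, and 61.4, 91.4 and 72.1 CPM in GFP. The 3 groups overlapped throughout. Its log2 change was -0.07 ± 0.18 (SE, n = 3 per group; edgeR adjusted p = 0.796) against wild type and -0.05 ± 0.18 (edgeR adjusted p = 0.854) against GFP, and the sign turned under upper quartile scaling and under scaling to library totals.

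None of the 3 immunoproteasome genes passed the test across all genes with TMM scaling, while their ratios to the constitutive partners were higher in every rd10 library. Psmb8 (chr17:34335140-34338399, plus strand) had 3.23, 3.85 and 7.52 CPM in wild type, 9.08, 9.65 and 9.36 CPM in rd10, and 1.99, 5.15 and 5.72 CPM in GFP. The rd10 libraries were close together and above all others, and the normal libraries were spread widely. The log2 change was 0.94 ± 0.41 (SE, n = 3 per group; edgeR adjusted p = 0.107) against wild type and 1.13 ± 0.41 (edgeR adjusted p = 0.0597) against GFP. Psmb8 was called against wild type without wild type 3 (adjusted p = 0.0458) and without GFP 1 (adjusted p = 0.0480), and against GFP without wild type 3 (adjusted p = 0.0426). It was also called against wild type with library totals (adjusted p = 0.0465) and with only these 2 groups in the fit (adjusted p = 0.0432). Against GFP it was called with DESeq2 (adjusted p = 0.0270), limma-voom (0.0297), upper quartile scaling (0.0476), library totals (0.0205) and the replicate block (0.0343).

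Psmb10 (chr8:108459628-108462292, minus strand) had 9.99, 10.8 and 14.0 CPM in wild type, 13.7, 15.6 and 14.97 CPM in rd10, and 8.07, 14.4 and 10.6 CPM in GFP. Single normal libraries, wild type 3 and GFP 2, reached into the rd10 range. Its log2 change was 0.35 ± 0.24 (SE, n = 3 per group; edgeR adjusted p = 0.306) against wild type and 0.42 ± 0.24 (edgeR adjusted p = 0.209) against GFP. It was called against GFP with library totals, at 0.75 (adjusted p = 0.0391), and without wild type 3 and GFP 2, at 0.66 (adjusted p = 0.0386). Psmb9 (chr17:34319044-34324275, minus strand) was near the limit of detection, with counts of 0, 16 and 14 in the wild type libraries, 19, 25 and 37 in rd10, and 15, 0 and 4 in GFP. Its zeros fell in wild type 1 and GFP 2, and its log2 changes of 1.07 ± 0.96 and 1.77 ± 1.01 (SE, n = 3 per group) had edgeR adjusted p of 0.423 and 0.203.

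The constitutive partners Psmb5, Psmb6 and Psmb7 had log2 changes of -0.37, -0.58 and -0.50 in rd10 against wild type, and none passed. Psmb8 counts stood at 5.64%, 5.80% and 12.6% of Psmb5 counts in wild type, at 17.4%, 17.6% and 25.9% in rd10, and at 3.75%, 6.04% and 10.7% in GFP. Psmb10 counts stood at 8.28%, 5.87% and 7.79% of Psmb7 counts in wild type, at 10.6%, 13.3% and 15.4% in rd10, and at 6.03%, 6.79% and 7.71% in GFP. In both pairs every rd10 library exceeded every normal library, and wild type and GFP overlapped. The mean ratio in rd10 was 2.68-fold that of wild type for Psmb8 over Psmb5 and 1.79-fold for Psmb10 over Psmb7, and 3.19-fold and 1.90-fold that of GFP (two-sided exact permutation p = 0.1 each, adjusted p = 0.133 over 12 tests). Psmb9 counts were 1.58% to 2.91% of Psmb6 counts in rd10 and at most 1.26% in the normal libraries, with 0.5 added to each count. The fold of that pair rests on the zeros and is not given. Of the 11 other subunits of the proteasome core, 1 fell and none rose in each rd10 comparison. Of all genes, 13.9% fell against wild type and 15% against GFP. The subunit that fell was Psmb3 (-0.63 ± 0.21 against wild type, SE, n = 3 per group, edgeR adjusted p = 0.0421). None of the 5 activator and assembly genes passed, and Psme3, the most abundant of them, had a log2 change of -0.20, which turned to 0.09 with library totals. With scaling to inner retinal neurons all 3 constitutive partners and all 11 other core subunits fell. Under that scaling 7421 of all 14300 genes tested fell against wild type, and the median log2 change of all genes was -0.72. Psmb3 did not pass against wild type with the upper quartile (adjusted p = 0.0820) or with library totals (adjusted p = 0.240), where none of the 11 fell.

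**Figure D2:**
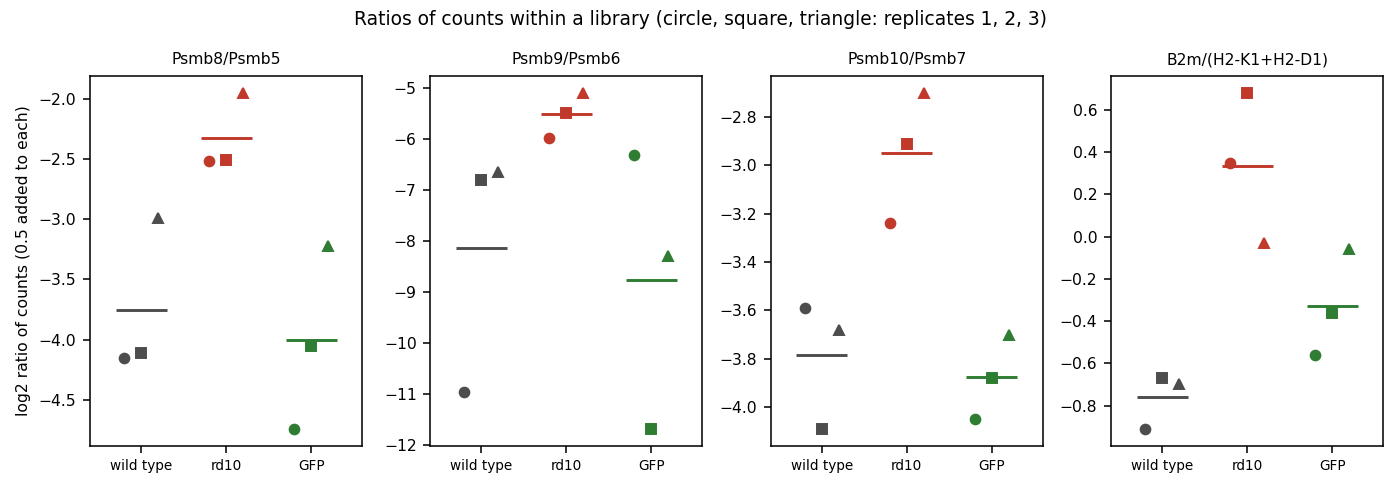
Log2 ratio of counts within each library, with 0.5 added to each count, for 3 immunoproteasome genes over their constitutive partners and for B2m over the summed heavy chains, with the group mean as a line; each panel has its own axis. The 3 rd10 points lie above the 6 normal points in every panel, from 17.4% to 25.9% for Psmb8 over Psmb5 against 3.75% to 12.6%.

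Nlrc5 (chr8:96996663-97051172, plus strand), the transactivator, had the largest fold of the 10 genes against wild type, at low counts. The counts were 4, 4 and 18 in the wild type libraries, 32, 39 and 77 in rd10, and 4, 4 and 4 in GFP, or 0.385 to 1.80, 2.53 to 5.68 and 0.363 to 0.458 CPM. All rd10 libraries exceeded all normal ones, rd10 3 stood above the other rd10 libraries, and wild type 3 stood above the other normal ones. The log2 change was 2.12 ± 0.61 (SE, n = 3 per group; edgeR adjusted p = 0.0258) against wild type and 3.21 ± 0.67 (edgeR adjusted p = 0.00580) against GFP. The call against wild type ended when wild type 1, wild type 2, rd10 2 or rd10 3 was left out, with adjusted p of 0.0751, 0.0859, 0.0504 and 0.108. The log2 change was 1.73 without rd10 3, and without wild type 3 it was 3.22 (edgeR adjusted p = 0.00675). That against GFP held under the 20 alternatives, at adjusted p up to 0.0341.

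**Figure D3:**
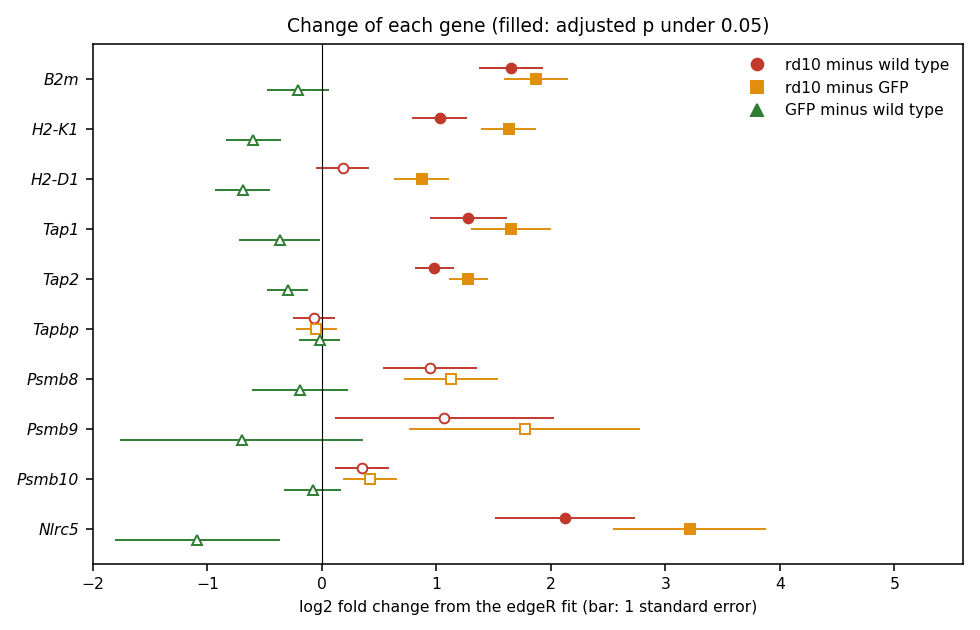
Log2 fold change of each gene in the 3 comparisons, from the edgeR fit, with 1 standard error as a bar and filled symbols for an adjusted p under 0.05. B2m, H2-K1, Tap1, Tap2 and Nlrc5 are filled in both rd10 comparisons, H2-D1 in rd10 against GFP, and no gene in GFP against wild type.

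Per kilobase of the longest GENCODE M21 protein-coding transcript, B2m led the order in each group, at 59.6 ± 21.5 CPM per kb in wild type, 187.1 ± 31.4 in rd10 and 51.4 ± 14.0 in GFP (SD, n = 3). In wild type it was followed by Tapbp (26.2 ± 3.85, SD, n = 3), H2-D1 (25.2 ± 8.25) and H2-K1 (20.5 ± 6.26), which overlapped as neighbours, then by Psmb10 (8.85 ± 1.64), apart from both its neighbours. Tap2 (3.05), Psmb8 (2.99), Tap1 (1.44), Psmb9 (0.725) and Nlrc5 (0.114) closed the wild type order, each overlapping the next. In rd10 H2-K1 was second, at 41.8 ± 6.13 (SD, n = 3), and did not overlap H2-D1 at 28.4 ± 2.69, which overlapped Tapbp at 25.0 ± 1.77. Psmb10 (11.2), Tap2 (6.01), Psmb8 (5.75), Tap1 (3.49), Psmb9 (1.54) and Nlrc5 (0.499) followed in rd10, where Tap2 and Psmb8 alone of these neighbours overlapped. In GFP the order after B2m was Tapbp (25.9 ± 5.25, SD, n = 3), H2-D1 (15.6 ± 3.4), H2-K1 (13.5 ± 2.86), Psmb10 (8.41 ± 2.45), Psmb8 (2.63), Tap2 (2.48), Tap1 (1.11), Psmb9 (0.429) and Nlrc5 (0.0529). There Tapbp lay above H2-D1 without overlap, as did Psmb10 above Psmb8 and Tap2 above Tap1, and the other neighbours below Tapbp overlapped.

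GFP and wild type retina were compared as the 2 normal groups. None of the 10 genes passed, and edgeR called none of the 14300 genes (0%), while 214 genes (1.50%) had an unadjusted p under 0.05 and DESeq2 called 2. The median log2 change of the 10 was -0.33, and that of all genes was 0.01. H2-D1, at -0.69 ± 0.24, and H2-K1, at -0.60 ± 0.24 (SE, n = 3 per group), had unadjusted edgeR p of 0.0142 and 0.0302 and adjusted p of 1. All GFP libraries lay below all wild type libraries for 2 genes, H2-D1 and Tap2, where 2.46% of all genes did so.

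Wild type 3 was the highest wild type library for 7 of the 10 genes, and the highest of the 6 normal libraries for 6 of them (B2m, H2-K1, H2-D1, Tap1, Psmb8 and Nlrc5). This library was singled out after its values were seen. The summed level of the 10 genes was 211.1, 230.8 and 296.8 CPM in wild type 1, 2 and 3, and that of 11 interferon-induced GTPases was 35.5, 38.1 and 55.1 CPM. The 20 microglia markers summed to 112.6, 132.5 and 128.1 CPM in the same libraries, so wild type 3 lay between the others there. Without wild type 3 alone, H2-D1 stood at a log2 change of 0.47 against wild type and did not pass (edgeR adjusted p = 0.135). With GFP 2 left out as well, H2-D1 was called in rd10 against wild type, at the same 0.47 (edgeR adjusted p = 0.0428), as was Psmb8, at 1.40 (edgeR adjusted p = 0.0212), and 7 of the 10 genes were higher.

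The size of the class I changes depended on the scaling. When libraries were scaled to the summed counts of bipolar, amacrine and ganglion cell markers, the median of all genes moved from -0.03 to -0.72 in rd10 against wild type, and when they were scaled to plain totals it moved to 0.25. With scaling to inner retinal neurons, B2m alone stayed called higher against wild type, at a log2 change of 0.96, H2-K1 was at 0.32, Tap1 at 0.58, Tap2 at 0.29 and Nlrc5 at 1.40, H2-D1 turned to -0.53 and Psmb10 to -0.35, and Tapbp was called lower at -0.75. A scaling shifts all genes of a comparison by nearly the same amount, so changes relative to the median of all genes are given once, with TMM scaling, at 1.68 for B2m, 1.06 for H2-K1, 1.01 for Tap2 and -0.04 for Tapbp. Against GFP, B2m, H2-K1, Tap1, Tap2 and Nlrc5 kept their calls also with scaling to inner retinal neurons, where H2-D1 did not (0.18, adjusted p = 0.575).

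Markers of microglia and Müller glia were higher in rd10 as well, and so were markers of inner retinal neurons. Against wild type 7 of 9 bipolar, 8 of 9 amacrine and 4 of 8 ganglion cell markers rose, where 14.5% of all genes did. Their median log2 changes were 1, 0.71 and 0.67. The microglia markers summed to 304.1 to 346.7 CPM in rd10 and to 98.2 to 144.3 CPM in the normal libraries, and their median log2 change against wild type was 1.54, or 0.85 with 7 of 20 higher under scaling to inner retinal neurons. B2m stood at 0.410 times this sum on average in wild type, 0.503 in rd10 and 0.379 in GFP, with libraries from 0.327 to 0.565 in wild type and from 0.464 to 0.553 in rd10. H2-K1 stood at 0.266, 0.214 and 0.188 times the sum, H2-D1 at 0.425, 0.188 and 0.281, Tap2 at 0.0847, 0.0653 and 0.0756, and Nlrc5 at 0.00686, 0.0120 and 0.00348, in wild type, rd10 and GFP. The Nlrc5 libraries overlapped, from 0.0029 to 0.0141 in wild type and 0.0083 to 0.0187 in rd10. In the same order Tap1 was at 0.0340, 0.0324 and 0.0294 and Tapbp at 0.612, 0.228 and 0.644. Psmb8 was at 0.0388, 0.0295 and 0.0365, Psmb9 at 0.0075, 0.0066 and 0.0058, and Psmb10 at 0.0932, 0.0464 and 0.0937. The Müller glia markers summed to 9256 to 9908 CPM in rd10 and 4348 to 6238 CPM in the normal libraries. Their median log2 change against wild type was 1.05, or 0.36 with 3 of 10 higher under scaling to inner retinal neurons. Of the 13 endothelial markers 1 rose and 1 fell against wild type, where 14.5% of all genes rose and 13.9% fell. The median log2 change of these markers was 0.01 against wild type (range -1.09 to 1.89) and -0.26 against GFP. Their sum was 688.6 to 988.7 CPM in rd10 and 233.4 to 463.9 CPM in the normal libraries, and most of the sum in rd10 came from Kdr, at a mean of 606.8 CPM, named after its value was seen. The part of these cells in the class I changes was not tested.

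T and natural killer cell markers were near 0. The 15 of them summed to 4.03 to 4.67 CPM in rd10, 1.41 to 2.21 in wild type and 1.27 to 3.89 in GFP. The T cell receptor components Cd3d, Cd3e and Cd3g had 1, 3 and 1 counts over the 3 rd10 libraries and 0 in the others, and Prf1, Klrd1 and Cd2 had 0 in all 9 libraries. Lck had 29, 56 and 31 counts in wild type, rd10 and GFP, Ccl5 had 1, 25 and 5, and Cd4 had 7, 9 and 13. Of the 15 genes, 2 were tested and none passed in either rd10 comparison. Of 7 receptors and co-receptors of class I molecules in the files, Cd8a alone was tested, at 0.958 to 1.61 CPM in rd10 and a log2 change of 1.11 against wild type (edgeR adjusted p = 0.229). Among those too low to be tested, Lilrb4 had 4, 25 and 0 counts in wild type, rd10 and GFP. Lilrb3 had 2, 33 and 3 and Cd8b1 had 4, 7 and 3, all named after their values were seen.

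**Figure D4:**
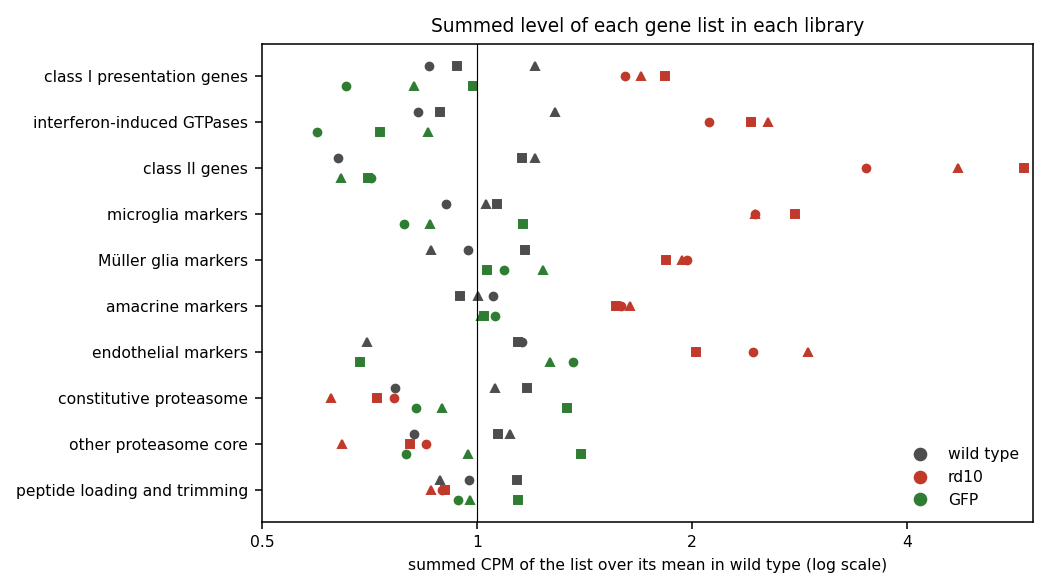
Summed CPM of 10 gene lists in each library, divided by the list's mean in wild type, on a log axis; colours are groups and symbols are replicates 1 (circle), 2 (square) and 3 (triangle). The class I genes, the GTPases, the class II genes and the microglia, Müller glia, amacrine and endothelial markers lie to the right in rd10, and both proteasome lists and the loading genes do not.

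Other genes of the pathway moved less uniformly. Of 8 genes of peptide loading and trimming, none rose and 1 fell in rd10 against wild type, where 14.5% of all genes rose and 13.9% fell (15.2% and 15% against GFP). That gene was Calr, the chaperone calreticulin, at -0.54 ± 0.17 (SE, n = 3 per group; edgeR adjusted p = 0.0386). Tapbpl, a tapasin relative that edits peptides, and Erap1, which trims them, were at 0.69 (adjusted p = 0.0768) and 0.50 (adjusted p = 0.138) against wild type, and both rose against GFP, at 1.05 (edgeR adjusted p = 0.0159) and 0.77 (edgeR adjusted p = 0.0343). Of 25 further class I heavy chain genes and relatives in the files, 11 were tested, and 2 rose and 2 fell against wild type. H2-M3, which presents formylated peptides, was at 1.48 ± 0.46 and Mr1, which presents vitamin B metabolites, at 0.80 ± 0.26, while H2-K2 was at -1.16 ± 0.32 and the iron regulator Hfe at -0.91 ± 0.28 (SE, n = 3 per group; edgeR adjusted p from 0.0218 to 0.0439). Against GFP, with libraries scaled by the median of ratios, H2-M3 (0.96, edgeR adjusted p = 0.120) and Hfe (-0.70, 0.0796) did not pass. Mr1 (1.46, 0.00319) and H2-K2 (-1.11, 0.0244) did. Mr1 is named outside the rule for named genes, after its value was seen. H2-K2 is a near copy of other heavy chain genes, with the same doubt as for H2-K1. With scaling to inner retinal neurons 5 of the 8 loading genes fell against wild type and Erap1 turned to -0.19. None of the 11 heavy chain genes rose there and 3 fell. Of all 14300 genes tested, 245 rose and 7421 fell under that scaling. With library totals 3603 of all genes rose and 1079 fell. There 3 loading genes and 3 heavy chain genes rose and none of either list fell. The falls of Calr, Hfe and H2-K2 then did not pass (adjusted p = 0.252, 0.123 and 0.0608), nor did those of Calr and Hfe with the upper quartile (adjusted p = 0.0665 and 0.0517).

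The interferon-gamma gene Ifng and the interferon-beta gene Ifnb1 had 0 counts in all 9 libraries. For independent reads, 0 counts in a single library allow an expected count of up to about 3, and low counts here may not be independent. Of 12 tested genes of interferon-gamma signalling, 3 rose and 1 fell against wild type, where 14.5% of all genes rose and 13.9% fell. Irf1, a transcription factor of class I induction, had 3.63, 7.02 and 5.61 CPM in wild type, 9.002, 13.03 and 16.2 CPM in rd10, and 6.07, 2.29 and 3.81 CPM in GFP. All rd10 libraries lay above all others, at a log2 change of 1.23 ± 0.38 (SE, n = 3 per group; edgeR adjusted p = 0.0342) against wild type and 1.64 ± 0.39 (edgeR adjusted p = 0.0105) against GFP. The feedback inhibitor Socs3 and the transcription factor Stat3 rose too, at 1.51 (edgeR adjusted p = 0.0137) and 0.84 (edgeR adjusted p = 0.0153), and the receptor chain Ifngr1, named after its value was seen, fell by 0.71 on the log2 scale (edgeR adjusted p = 0.0346). The type I interferon receptor chain Ifnar2 was the 1 of 3 tested genes of its list that rose, at 0.77 (edgeR adjusted p = 0.0352). Ifnar2 was at 1.04 (edgeR adjusted p = 0.00808) with library totals. Under scaling to inner retinal neurons it was at 0.07 (edgeR adjusted p = 0.841), where none of its list rose and 2 fell. With scaling to inner retinal neurons none of the interferon-gamma signalling genes rose against wild type and 6 fell. Of all 14300 genes tested, 245 rose and 7421 fell under that scaling. With library totals 7 of the signalling genes rose and none fell, where 3603 of all genes rose and 1079 fell. The call of Ifngr1 ended with the upper quartile (adjusted p = 0.0621) and with totals (adjusted p = 0.173).

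Of the genes for partners of NLRC5 at class I promoters, the NF-Y subunits were lower in rd10 with TMM scaling, and these calls depended on the scaling. Of 8 RFX, NF-Y and CREB/ATF genes, none rose and 3 fell against wild type, where 14.5% of all genes rose and 13.9% fell. These 3 were the NF-Y subunits Nfya (-0.97), Nfyb (-0.70) and Nfyc (-0.71), with edgeR adjusted p of 0.0256, 0.0398 and 0.0123. Against GFP the same 3 and Creb1 fell, where 15% of all genes fell. Of 6 genes of NF-kappa B, Nfkb1 rose against wild type, at 0.84 ± 0.21 (SE, n = 3 per group; edgeR adjusted p = 0.0127), and the inhibitor Nfkbia fell against GFP, at -0.95 ± 0.29 (edgeR adjusted p = 0.0309). The rise of Nfkb1 was 1 in 6 genes, where 14.5% of all genes rose against wild type. Nfkb1 did not pass against GFP (0.59), but did there with the upper quartile (edgeR adjusted p = 0.0216) and library totals (0.0051). It was at 0.14 (adjusted p = 0.553) against wild type and -0.09 (0.715) against GFP with scaling to inner retinal neurons. With scaling to inner retinal neurons 7421 of 14300 genes tested fell against wild type, and so did 7 of the 8 partners of NLRC5. With library totals none of them passed in either direction against wild type, with adjusted p of 0.0770 for Nfya, 0.187 for Nfyb and 0.0887 for Nfyc, and 2 rose and 1 fell against GFP. The call of Nfyb also ended with the upper quartile (adjusted p = 0.0625), and that of Nfkbia against GFP ended with the upper quartile (adjusted p = 0.0535) and with totals (adjusted p = 0.129).

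Interferon-induced GTPases and class II genes were also higher in rd10. Of 10 tested interferon-induced GTPases, 7 rose and none fell in each rd10 comparison. Of all genes, 14.5% rose against wild type and 15.2% against GFP. The median log2 change of the GTPases was 1.09 against wild type. Gbp2, Gbp7 and Gbp4 were at 1.96, 1.12 and 2.83 there (edgeR adjusted p = 6.14e-04, 0.00361 and 0.00609). Of 6 tested class II genes, 4 rose and none fell, and H2-Eb1, H2-Aa and Cd74 were at 3.78, 3.84 and 2.61 (edgeR adjusted p = 5.02e-04, 0.00107 and 0.00121). Ciita, the class II counterpart of Nlrc5, was too low to be tested, at 0.885 CPM or less in every library. With scaling to inner retinal neurons, 2 of the GTPases and 4 of the class II genes stayed higher against wild type, at median log2 changes of 0.40 and 1.97.

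Of the 10 genes, 7 lie on chromosome 17 within the H2 complex. In the mm9 interval from Tapbp to H2-D1 (chr17:34056423-35404442), 65 other genes were tested, of which 10 rose and 9 fell in rd10 against wild type, where 14.5% of all genes rose and 13.9% fell, with a median log2 change of -0.11. Against GFP 12 rose and 16 fell, where 15.2% and 15% of all genes did, with a median of -0.15. Of the 3 genes outside the interval, B2m and Nlrc5 rose and Psmb10 did not pass.

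The mean profile of the 10 genes over the 9 libraries, as log2 CPM centred on each gene's own mean, ran from -0.67 to 0.29 in wild type, from 0.64 to 0.92 in rd10 and from -0.65 to -0.53 in GFP. Of the other genes with a mean of at least 5 CPM, those nearest to it were Baalc, at a root-mean-square distance of 0.125 log2 units, Ctsh (0.156), Aldh1l1 (0.164), Slc6a12 (0.179) and Tmbim1 (0.186). Ctsh encodes the lysosomal protease cathepsin H, and Aldh1l1 a folate enzyme of astrocytes. The distance is a description over 9 libraries that also share depth and the change in cell makeup.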

How the data were processed

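The deposited files hold the authors' raw counts per gene, 1 file per library, on mm9 per the submitters' processing notes. Aligner, counter, annotation, strand setting and handling of multiply matched reads are not given in the sources used here. Per the series' design text, the 3 libraries of a group are biological replicates. Replicate libraries differed by more than counting noise (chi-square per degree of freedom from 13.1 to 76.1).

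Of 21769 genes, 14300 passed filterByExpr (minimum count 10, minimum total 15) of edgeR 4.0.16 in R 4.3.3. A quasi-likelihood model with a mean per group was fitted to all 9 libraries with TMM factors, and p values were adjusted by Benjamini-Hochberg over all genes tested. Procedures were tested on simulated data. Ratios within libraries were compared as log2 with 0.5 added to each count, an addition to the planned analysis, by exact permutation. Alternatives used other scalings, DESeq2 1.42.0, limma 3.58.1 (voom), no filter, 2 groups only, the replicate block, and subsets of libraries. The limit given for 0 counts covers counting error only. Each SE was taken from the quasi-likelihood test and each SD over the 3 libraries of a group, so both include variation between libraries.

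The members and 27 further lists (258 entries in all, 254 matched) were chosen with earlier results of these data known. Named from each pathway list were up to 3 genes with the smallest adjusted p in rd10 against wild type among those called in any comparison, otherwise the most abundant, plus Psmb5, Psmb6, Psmb7, Irf1, Ifng and Ciita. A gene chosen by this rule is not reported here. Positions are on mm9 with 1 added to each start.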

Additional observations from a re-analysis of the deposited data

How the results depend on the processing

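Of 200 values of single members against wild type, 171 kept direction and call, and of 200 against GFP, 180. In rd10 against wild type, 4055 genes and 5 members were called, with 7666 genes, 1 member higher and 1 lower under scaling to inner retinal neurons, and 543 genes and 1 member without the libraries with lens transcripts, where wild type keeps a single library that is assumed to vary like the others. Leaving out single libraries gave 2455 to 5421 genes and 3 to 6 members; the lowest gene counts came without rd10 1, 2 or 3 (2455, 2603 and 2540) and 3 members without wild type 1, wild type 2, rd10 2 or rd10 3. In rd10 against GFP, 4312 genes became 7588 with 1 member lower under scaling to inner neurons, 1846 without the lens libraries and 2603 to 4404 with single libraries left out (without rd10 1, 2 and 3: 2603, 2783 and 2707). In GFP against wild type 0 genes became 2 with DESeq2 and 0 to 4 with single libraries left out (4 without GFP 3). The split of higher to lower genes moved from 2067 and 1988 to 3603 and 1079 with library totals and to 245 and 7421 with inner neurons against wild type, and from 2174 and 2138 to 2745 and 1644 (upper quartile), 4040 and 1055 (totals) and 314 and 7274 (inner neurons) against GFP; against wild type it was 2464 and 1596 with the upper quartile. Calls that ended against wild type without the lens libraries were H2-K1 (log2 change 1.34, adjusted p = 0.0833), Tap1 (1.55, 0.158), Tap2 (0.99, 0.209) and Nlrc5 (3.31, 0.134). The cause was not tested.

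Signs turned for members near 0. Against wild type, Tapbp was at 0.01 with the upper quartile, 0.23 with totals, and -0.16 to 0.06 with single libraries left out (0.01 without rd10 3), and H2-D1 and Psmb10 were at -0.53 and -0.35 with inner neurons. Against GFP, Tapbp was at 0.06, 0.28 and -0.16 to 0.12 (0.02 without rd10 3) and at 0.12 without wild type 3 and GFP 2, an alternative chosen after seeing the data, and Psmb10 at -0.26 with inner neurons. For GFP minus wild type, single libraries left out gave ranges of -0.38 to 0.12 for B2m (0.00 without GFP 1), -0.17 to 0.11 for Tapbp (0.10 without wild type 2, 0.02 without GFP 3), -0.64 to 0.03 for Tap1, -0.45 to 0.27 for Psmb8 (0.17 without GFP 1), -0.30 to 0.11 for Psmb10 (0.08 without wild type 3) and -1.44 to 0.01 for Nlrc5. Without the lens libraries B2m was at 0.42, Tapbp at 0.14, Psmb8 at 0.75, Psmb9 at 4.25, Psmb10 at 0.32 and Nlrc5 at 0.05, and without wild type 3 and GFP 2 Tap1 was at 0.11, Psmb8 at 0.12 and Psmb9 at 0.17. The log2 ratios for GFP minus wild type ran from -0.64 to 0.13 (Psmb8 over Psmb5), -2.03 to 0.84 (Psmb9 over Psmb6) and -0.24 to 0.01 (Psmb10 over Psmb7).

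The shared replicate numbers did not pair the libraries: deviations of same-numbered libraries correlated at 0.0637, 0.104 and -0.324 between rd10 and wild type and at -0.310, 0.244 and 0.357 between rd10 and GFP. With the replicate block 3606 and 3908 genes were called in either direction. Of the members, 5 and 7 were called higher, the seventh being Psmb8 against GFP (adjusted p = 0.0343). Low depth limits Psmb9, with 0 to 37 counts per library, and Nlrc5, with 4 to 77.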
